A study of Mus musculus with 4 samples.

Results

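The 49 genes described here encode the machinery that copies DNA in S phase, and they were taken by symbol from a table of 18804 genes. All 49 were found in the table. Levels are in FPKM, a read density per kilobase of gene that is scaled to the size of each library. A gene was tested where its 4 libraries averaged 1 FPKM or more, which 45 of the 49 did. RNA was sequenced from group 1 innate lymphoid cells (ILC1s, tissue-resident relatives of natural killer cells) of the livers of mice aged 5 to 8 weeks, all at homeostasis, with no other treatment named. The 2 KO libraries (replicates 1 and 2) came from mice labelled as Cd200r knockouts, the gene of an inhibitory receptor for the ligand CD200, and the 2 controls (replicates 1 and 3) from WT mice. The sources used here do not give the strain, the sex, the exons missing from the allele, how many mice went into a library or how the cells were sorted. Nothing in the labels says that the libraries of a group came from separate animals, so p-values measure the spread between libraries, whether technical or not.

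DNA replication begins when the origin recognition complex, with Cdc6 and Cdt1, loads the MCM helicase ring onto chromosomes. The kinase Cdc7, Mcm10, Cdc45 and the GINS complex then turn the ring into a moving helicase. Primase and the DNA polymerases copy the opened strands, the PCNA clamp and its RFC loader hold the polymerases in place, and Fen1 and Lig1 join the fragments of the lagging strand. Many of these genes are transcribed under E2F factors as cells leave G1. Mature lymphocytes at rest are mostly out of the cell cycle, and transcripts of this machinery are low in them compared with dividing lymphoblasts.

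The inferred depth of the libraries was similar. The steps between low values of single-exon genes gave a depth at which 1 FPKM stands for 38.8 to 41.1 reads per kilobase. The summed FPKM ran from 511415 to 523717, but FPKM is already scaled to library size, so these sums do not measure it. The targeted gene Cd200r1 measured 110.7 and 103.7 FPKM in KO, against 161.5 and 173.3 FPKM in WT, so its transcript fell by 0.64 on the log2 scale (SE 0.09, limma adjusted p = 0.00451) and was still present. Values per gene do not show which exons these reads came from, and the source of the remaining transcript was not tested. All 10 ILC1 markers on the list were measured, among them Ncr1, Tbx21, Cxcr6 and Gzma. They summed to 14406 and 15545 FPKM in KO and to 17919 and 17856 FPKM in WT, and Il18r1 alone passed, as a rise. Gzma gave most of each sum, at 8756 and 9994 FPKM in KO and 11383 and 11494 FPKM in WT. Of the 10, 8 had negative log2 fold changes, and the median was −0.14. At an unadjusted p under 0.05, 4 were lower, where 6.52% of all genes tested were. Transcripts of other cell types were present too and differed between the groups (given below). The replication genes together made up 0.253% and 0.236% of the summed FPKM in KO, against 0.205% and 0.209% in WT. In bulk samples, a smaller number of cells of a type and less RNA per cell cannot be told apart, nor can more cells in S phase and more transcript per cell.

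**Figure D1:**
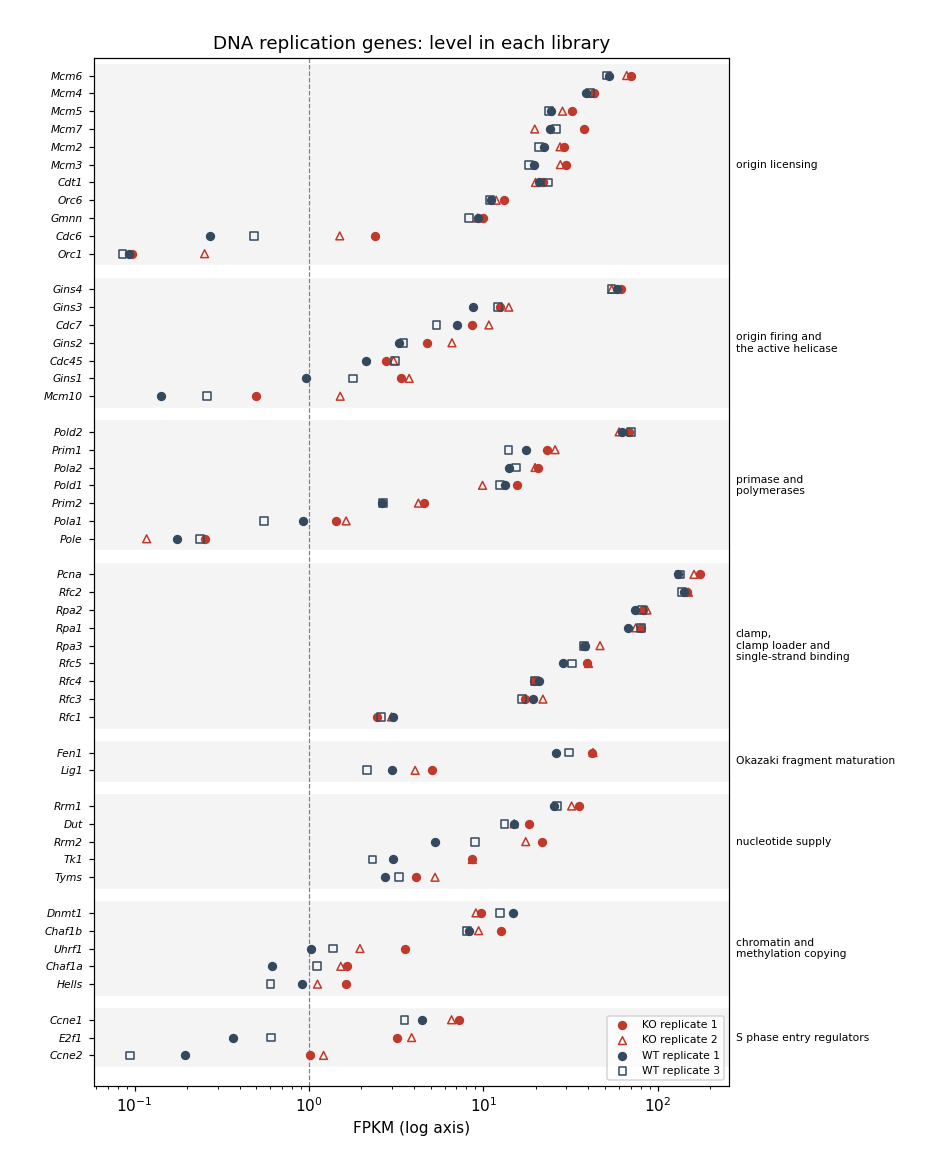
FPKM of the 49 genes in each library, on a log axis, grouped by role and ordered by mean level. Red marks are the 2 KO libraries and dark marks the 2 WT libraries, and the dashed line is 1 FPKM. E2f1, Ccne2, Cdc6, Tk1 and Rrm2 lie well apart, with both KO libraries higher. Some abundant subunits, such as Rfc2, Gins4 and Pold2, lie close together in all 4. In Pcna and Mcm6, also abundant, both KO libraries lie higher.

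The replication genes that rose in the KO serve S phase entry, nucleotide supply, helicase loading and lagging-strand maturation. Of 45 tested, 6 rose, 0 fell and 39 did not pass (limma, Benjamini-Hochberg adjusted over 9476 genes). The genes that rose were E2f1, Tk1, Rrm2, Mcm3, Fen1 and Cdc6. Over all genes tested, 2.40% rose and 0.939% fell. At an unadjusted p under 0.05, 23 of the 45 were higher and 1 was lower, where 8.97% and 6.52% of all genes were. Both KO libraries lay above both WT libraries for 32 of the 45 and below them for 1 (Dnmt1), where 24.3% and 21.7% of all genes tested did so. Over the whole list these counts were 35 and 1 of 49, beside 18.2% and 17.8% of the whole table. The log2 fold changes were positive for 39 of 45, where 50.5% of all genes were, with a median of 0.37 beside 0.0033 over all genes. These counts describe the list and are no test of it: the genes were chosen with results known, and the filter let in 5 of them (Cdc6, E2f1, Pola1, Chaf1a and Hells) whose WT mean was below 1 FPKM, for which it is the KO level that brought the mean over the limit. Among the 32 with a mean of at least 5 FPKM, which that limit touches less, 27 were positive and the median was 0.27. With 2 libraries a group, an exact permutation test of a single gene cannot go below p = 0.333, so the calls rest on limma's pooling of the variance over genes. With no filter on level, limma called 0 of the 49 and 0 of all 18155 genes, with 22 of the 49 higher and 1 lower at an unadjusted p under 0.05. Without its mean-variance trend it called 2 of the 45, E2f1 and Tk1, and 0.602% of all genes as higher. With quantile normalization 3 were called (E2f1, Tk1 and Rrm2), where 1.89% of all genes were higher.

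**Figure D2:**
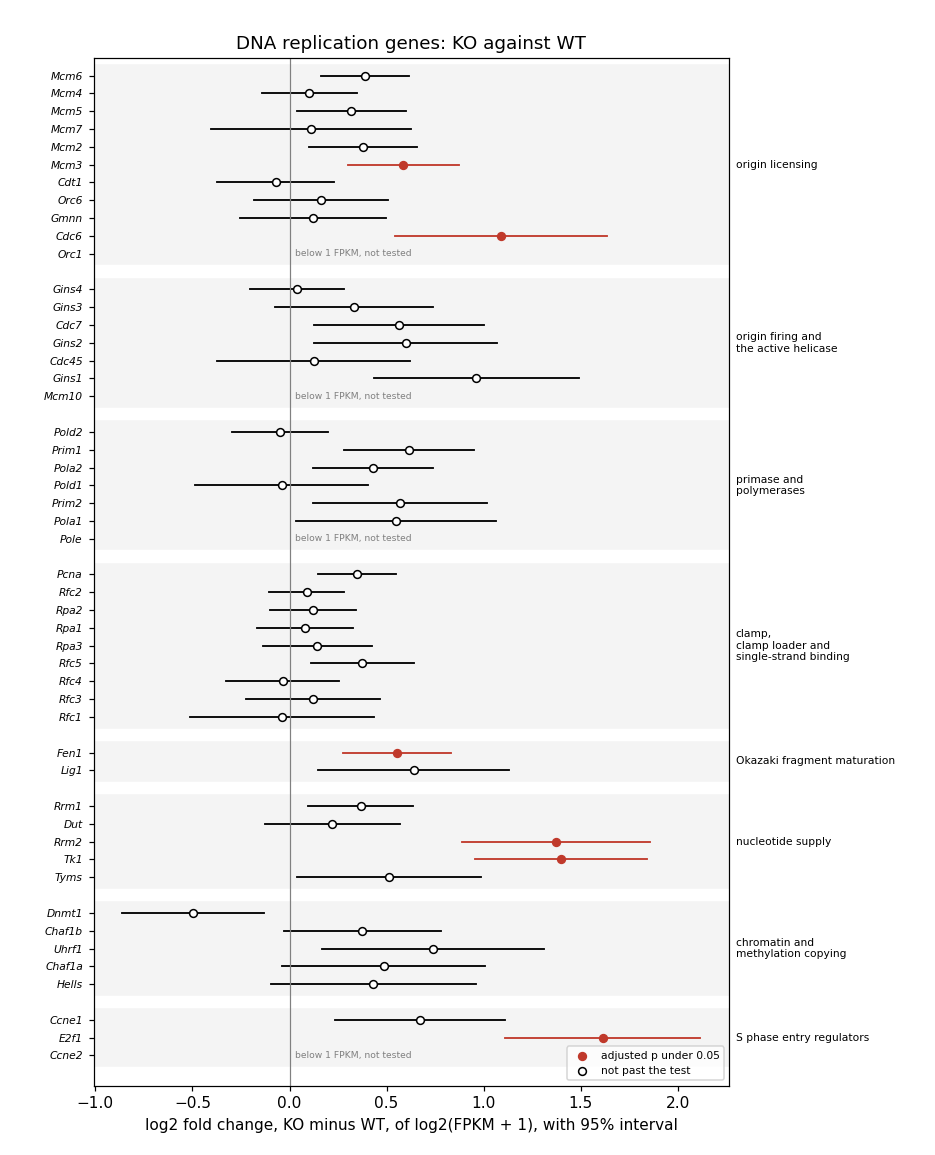
Log2 fold change, KO minus WT, of each tested gene on the log2(FPKM + 1) scale, with its 95% interval from limma. Filled red points passed the test, and open points did not. The 6 filled points range from 0.55 (Fen1) to 1.61 (E2f1), and Dnmt1 is the one gene whose interval lies wholly below 0.

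E2F1 is the activating transcription factor that drives many of the other genes, and its transcript had the largest log2 fold change of those tested here with a pseudocount of 1. E2f1 measured 3.21 and 3.88 FPKM in KO, against 0.369 and 0.604 FPKM in WT. The lower KO library was 5.32 times the higher WT library. The fold of the means was 7.29, and the log2 fold change was 1.61 (SE 0.23, adjusted p = 0.00407). It passed with each library left out in turn, at 1.499 to 1.73. Its size depends on the pseudocount, with 2.66 at 0.1 and 0.64 at 5, the second below Rrm2 (1.03) and Tk1 (0.83), and it passed at both. The E-type cyclins, which activate Cdk2 at the start of S phase, were also higher in both KO libraries. Ccne1 measured 7.27 and 6.58 FPKM in KO, against 4.44 and 3.53 FPKM in WT, with no overlap (log2 fold change 0.67, SE 0.20), and did not pass (adjusted p = 0.112). Ccne2 was below the filter, at 1.014 and 1.213 FPKM in KO and 0.195 and 0.0945 FPKM in WT.

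Of the 5 genes of deoxynucleotide supply, Tk1 and Rrm2 rose in KO and 3 did not pass, where 2.40% of all genes tested rose. All 5 had both KO libraries above both WT libraries, as did 24.3% of all genes tested. Tk1, which encodes the S phase thymidine kinase, measured 8.63 and 8.65 FPKM in KO, against 3.03 and 2.31 FPKM in WT. The log2 fold change was 1.40 (SE 0.20, adjusted p = 0.0044), with a range of 1.26 to 1.54 over the libraries left out, and the gene passed each time. Rrm2, the cell cycle-regulated small subunit of ribonucleotide reductase, measured 21.6 and 17.5 FPKM in KO, against 5.30 and 8.92 FPKM in WT. Its log2 fold change was 1.37 (SE 0.22, adjusted p = 0.00693), and it passed with each library left out, at 1.04 to 1.70. The large subunit gene Rrm1, more abundant in all 4 libraries, measured 35.4 and 32.1 FPKM in KO, against 25.4 and 26.4 FPKM in WT, and did not pass (0.37, SE 0.12, adjusted p = 0.163). The 2 subunit genes thus stood in different proportion: Rrm1 was 1.72 times Rrm2 by group means in KO and 3.64 times in WT, a difference that was not tested. Tyms (thymidylate synthase) had a log2 fold change of 0.51 (SE 0.21) and Dut (dUTPase, which keeps uracil out of DNA) of 0.22 (SE 0.16), and neither passed.

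Among the genes of origin licensing, Mcm3 and Cdc6 rose and the other 8 tested did not pass, where 2.40% of all genes tested rose. Mcm3, a subunit of the helicase ring, measured 30.0 and 27.7 FPKM in KO, against 19.5 and 18.2 FPKM in WT. Its log2 fold change was 0.59 (SE 0.13, adjusted p = 0.0352). Its size hardly depended on any library, but its call did: the adjusted p was 0.0607 without KO replicate 1 (0.53), 0.0925 without WT replicate 1 (0.63) and 0.16 without WT replicate 3 (0.54). Cdc6, the loading factor made anew in each cycle, measured 2.404 and 1.502 FPKM in KO, against 0.271 and 0.482 FPKM in WT (1.09, SE 0.25, adjusted p = 0.0408). Leaving out KO replicate 1 gave 0.87 (adjusted p = 0.137) and leaving out WT replicate 1 gave 0.98 (adjusted p = 0.133), neither past the threshold. Its log2 fold change was 2.11 with a pseudocount of 0.1 and 0.37 with a pseudocount of 5, where it did not pass (adjusted p = 0.0603). Under quantile normalization neither Mcm3 (0.57, adjusted p = 0.0512) nor Cdc6 (1.005, adjusted p = 0.0737) passed.

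The log2 fold changes of the 6 MCM subunits, which assemble into 1 ring, ran from 0.10 for Mcm4 to 0.59 for Mcm3. Mcm6, the most abundant, measured 70.2 and 66.5 FPKM in KO, against 52.7 and 51.2 FPKM in WT, with no overlap (0.39, SE 0.10, adjusted p = 0.075). Mcm2 (0.38, SE 0.13) and Mcm5 (0.32, SE 0.13) were likewise higher in both KO libraries without passing. Mcm4 measured 43.4 and 42.4 FPKM in KO, against 38.8 and 41.1 FPKM in WT, and its 95% interval of −0.14 to 0.34 for the log2 fold change covers 0. Mcm7 was uneven within the KO, at 37.7 and 19.7 FPKM, against 24.2 and 26.3 FPKM in WT. Its log2 fold change of 0.11 (SE 0.23) was 0.56 without KO replicate 2 and −0.34 without KO replicate 1. Whether the subunits differ from each other in their response was not tested.

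The other licensing genes stood closer together. Cdt1, which loads the ring with Cdc6, measured 22.1 and 19.9 FPKM in KO, against 20.8 and 23.4 FPKM in WT, and the groups overlapped (−0.07, 95% interval −0.37 to 0.23). Gmnn, which encodes geminin, the inhibitor of Cdt1, had a log2 fold change of 0.12 (95% interval −0.25 to 0.49), and its groups overlapped too. Orc6 had 0.16 (SE 0.16), and Orc1, the cell cycle-regulated subunit of the origin recognition complex, was below the filter with 0.0967 and 0.252 FPKM in KO and 0.0927 and 0.0851 FPKM in WT.

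None of the 6 tested genes of origin firing passed in limma. At an unadjusted p under 0.05, 3 were higher, where 8.97% of all genes tested were. The GINS subunit Gins1 measured 3.38 and 3.76 FPKM in KO, against 0.966 and 1.79 FPKM in WT. Its log2 fold change was 0.96 (SE 0.24, adjusted p = 0.0609), and it rose once WT replicate 3 was left out (1.21, adjusted p = 0.0244). Gins2 had 0.60 (SE 0.21), Gins3 had 0.33 (SE 0.18), and Gins4, the most abundant at 61.3 and 54.5 FPKM in KO and 58.1 and 54.4 FPKM in WT, had 0.04 (95% interval −0.20 to 0.28). The GINS genes thus ranged from about level to 2.59-fold higher by group means. Cdc7, the kinase that fires origins, measured 8.57 and 10.8 FPKM in KO, against 7.08 and 5.39 FPKM in WT (0.56, SE 0.20, adjusted p = 0.189). Cdc45, which joins MCM and GINS in the moving helicase, had 0.12 (95% interval −0.37 to 0.62) with overlapping groups. Mcm10 was below the filter, at 0.495 and 1.51 FPKM in KO and 0.142 and 0.262 FPKM in WT.

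Primase and polymerase alpha transcripts were higher in both KO libraries, without passing, while polymerase delta transcripts overlapped between the groups. Prim1, the catalytic subunit of primase, measured 23.2 and 25.8 FPKM in KO, against 17.5 and 13.9 FPKM in WT (0.62, SE 0.15, adjusted p = 0.0578). It passed without KO replicate 1 (0.69, adjusted p = 0.0335), without WT replicate 1 (0.77, adjusted p = 0.036) and in a fit limited to genes averaging 5 FPKM or more (adjusted p = 0.0448). Prim2 (0.57, SE 0.20), Pola1 (0.55, SE 0.23) and Pola2 (0.43, SE 0.14), the other subunits of that complex, had values of like size. Pold1, the catalytic subunit of polymerase delta, measured 15.6 and 9.90 FPKM in KO, against 13.3 and 12.5 FPKM in WT (−0.04, 95% interval −0.49 to 0.40). Pold2, a delta accessory subunit, measured 68.4 and 60.1 FPKM in KO, against 62.6 and 70.3 FPKM in WT (−0.05, 95% interval −0.30 to 0.20). Pole, the leading-strand polymerase, was below the filter at 0.117 to 0.252 FPKM in all 4 libraries.

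The clamp, its loader and the single-strand binding proteins included the most abundant of the 49 (Pcna and Rfc2) and had the lowest median log2 fold change of the roles, 0.12. In limma 0 of 9 passed, and 2 were higher at an unadjusted p under 0.05, where 8.97% of all genes tested were. Pcna, the sliding clamp, measured 175.9 and 161.6 FPKM in KO, against 130.6 and 133.8 FPKM in WT, with no overlap (0.35, SE 0.09, adjusted p = 0.0712). Rfc5 of the clamp loader was likewise higher in both KO libraries (0.37, SE 0.12, adjusted p = 0.147). Rfc1 (−0.04), Rfc2 (0.09), Rfc3 (0.12) and Rfc4 (−0.04) lay near 0. The subunits of replication protein A, which coats single-stranded DNA, had values of 0.08 (Rpa1), 0.12 (Rpa2) and 0.14 (Rpa3). Their 95% intervals together ran from −0.17 to 0.42, so the data leave room for a modest difference either way. Rfc2 stood at 137.9 to 150.1 FPKM, against 2.45 to 40.1 FPKM for the other loader subunits. In the GENCODE annotation 15.1% of its exon bases are shared with other genes, chiefly Lat2 on the opposite strand, which averaged 117.9 FPKM, and reads of the 2 genes cannot be told apart there. Of the 49 genes 8 share over 10% of their exon bases in this way, among them Gins2 (67.3%, chiefly with Gse1) and Rfc4 (12.7%, chiefly with Eif4a2).

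Both genes of Okazaki fragment maturation were higher in both KO libraries, as were 24.3% of all genes tested. Of these 2 genes 1 passed, where 2.40% of all genes tested rose. Fen1, the flap endonuclease, measured 42.0 and 42.6 FPKM in KO, against 26.2 and 31.1 FPKM in WT (0.55, SE 0.12, adjusted p = 0.039). It did not pass without KO replicate 2 (0.54, adjusted p = 0.0768), without WT replicate 1 (0.43, adjusted p = 0.303) or under quantile normalization (0.53, adjusted p = 0.0676). Other genes, chiefly the antisense gene Gm10143, cover 84.2% of the exon bases of Fen1, and their part in the value was not tested. Lig1, the replicative ligase, measured 5.08 and 4.07 FPKM in KO, against 3.01 and 2.16 FPKM in WT (0.64, SE 0.22, adjusted p = 0.183).

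The genes that copy chromatin and DNA methylation with the fork went in different directions, and 0 of 5 passed in limma. Dnmt1, the maintenance DNA methyltransferase, was the only one of the 49 with both KO libraries below both WT libraries, at 9.68 and 9.07 FPKM in KO and 14.9 and 12.5 FPKM in WT (−0.50, SE 0.16, unadjusted p = 0.0121, adjusted p = 0.161). Uhrf1, which brings Dnmt1 to newly copied DNA, measured 3.55 and 1.96 FPKM in KO, against 1.03 and 1.38 FPKM in WT (0.74, SE 0.26, adjusted p = 0.185). The partner genes therefore lay on opposite sides of 0, with 95% intervals of −0.86 to −0.13 for Dnmt1 and 0.17 to 1.31 for Uhrf1. Chaf1a (0.48, SE 0.24) and Chaf1b (0.38, SE 0.18), subunits of the histone chaperone CAF-1, and Hells (0.43, SE 0.24), a chromatin remodeller, were higher in both KO libraries without passing. Exons of Ubxn6 on the opposite strand cover part of Chaf1a, and 52.5% of its exon bases are shared with other genes.

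**Figure D3:**
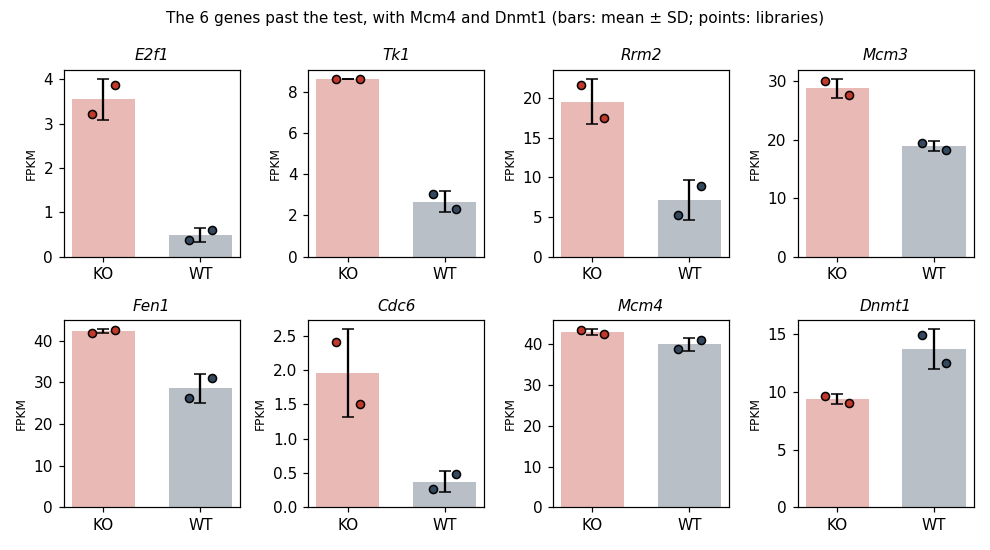
FPKM in KO (left) and WT (right) of the 6 genes that rose, with Mcm4 and Dnmt1 for comparison. Bars are the mean of 2 libraries, error bars the SD, and points the libraries. The points of KO lie above those of WT in the 6 genes and in Mcm4, and below them in Dnmt1.

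The larger values were found among the less abundant genes. Across the 45 tested genes, the mean FPKM and the log2 fold change had a Spearman correlation of −0.51, which is a description across genes that share the same 4 libraries and the same filter. No gene with a mean above 40 FPKM exceeded a log2 fold change of 0.39, that of Mcm6, whereas E2f1, Cdc6, Tk1 and Gins1, at means of 1.16 to 5.66 FPKM, had 0.96 to 1.61. E2f1 and Cdc6 had WT means of 0.487 and 0.376 FPKM, so the filter let them in through their KO level. Not all genes of low level had large values: Rfc1 and Cdc45, at means of 2.76 and 2.77 FPKM, had −0.04 and 0.12. By the inferred depth, 1 FPKM in a gene with 1 kilobase of exons rests on 38.8 to 41.1 reads. Just inside the limit of 1 FPKM were Hells, Pola1 and Cdc6, with means of 1.07, 1.13 and 1.16 FPKM. Just outside it were Ccne2 and Mcm10, with 0.629 and 0.602 FPKM.

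**Figure D4:**
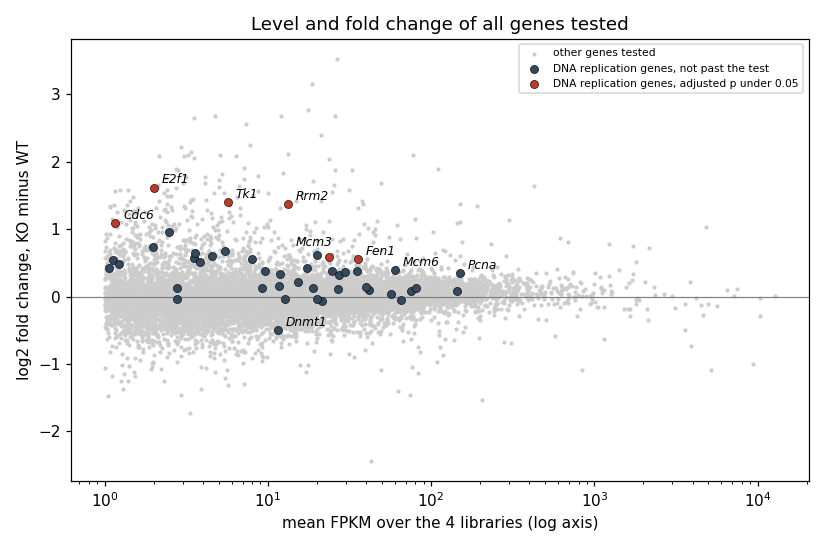
Mean FPKM over the 4 libraries (log axis) against the log2 fold change, KO minus WT, of all genes tested (grey) and of the 45 replication genes (red: past the test, dark: not past). The replication genes spread upward at low levels and less so at high levels, where Pcna and Mcm6 still lie above 0. Dnmt1 lies below 0.

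Promoter sequences were read in windows from 250 bases before to 50 bases after a start of transcription (RefSeq, GRCm38.p6), since E2F factors are known to bind many of these promoters. A window was used where its start lay within 100 bases of the 5′ end of the RefSeq gene, which held for 32 of the 49 genes. The windows of E2f1 and Cdc6 lie further inside their genes, so they are neither counted nor shown. The E2F letters searched, on both strands, were TTTCGCGC, TTTGGCGC, TTTCCCGC and TTTGCCGC. They were present for 7 of the 32 genes (21.9%), against 4.34% of the 6038 genes tested that have such a window and 2.18% of all 22802 genes with one. With every window of the table counted, wherever its start, the shares were 37.5% of 40 genes and 4.87% of genes tested. The shorter core of the same letters without the first T (TTCGCGC or TTGGCGC or TTCCCGC or TTGCCGC), which every full match contains, was present for 17 of the 32 (53.1%), against 17.6% of genes tested. It was found for 2 of the 4 genes that rose and have a window, and for 15 of 27 that were tested and did not pass (55.6%). The CHR letters TTTGAA and TTCGAA, known from promoters of mitotic genes, were present for 21.9% of the 32 and 14.9% of genes tested, and CCAAT for 62.5% and 42.1%. A match is a run of letters and was not shown to be bound, and no match says only that these letters are not in the window. The windows of the 4 genes that rose and of Rfc4, whose levels were almost the same in both groups, are printed 5′ to 3′ on the gene's strand with matches to the core in capitals.
Mcm3 (chr1:20820263-20820562, minus strand): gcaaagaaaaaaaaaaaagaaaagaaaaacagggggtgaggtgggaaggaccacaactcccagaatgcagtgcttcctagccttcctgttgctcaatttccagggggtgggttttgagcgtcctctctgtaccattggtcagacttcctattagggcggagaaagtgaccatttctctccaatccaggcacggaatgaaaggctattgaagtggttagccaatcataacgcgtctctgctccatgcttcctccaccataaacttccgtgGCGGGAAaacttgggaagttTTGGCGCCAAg
Rrm2 (chr12:24708004-24708303, plus strand): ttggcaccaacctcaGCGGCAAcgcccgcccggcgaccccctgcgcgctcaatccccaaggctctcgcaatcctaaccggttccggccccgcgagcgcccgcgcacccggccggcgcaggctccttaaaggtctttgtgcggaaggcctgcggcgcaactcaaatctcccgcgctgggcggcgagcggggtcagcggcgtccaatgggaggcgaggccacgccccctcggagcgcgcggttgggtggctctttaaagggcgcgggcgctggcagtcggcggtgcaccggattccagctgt
Fen1 (chr19:10204344-10204643, minus strand): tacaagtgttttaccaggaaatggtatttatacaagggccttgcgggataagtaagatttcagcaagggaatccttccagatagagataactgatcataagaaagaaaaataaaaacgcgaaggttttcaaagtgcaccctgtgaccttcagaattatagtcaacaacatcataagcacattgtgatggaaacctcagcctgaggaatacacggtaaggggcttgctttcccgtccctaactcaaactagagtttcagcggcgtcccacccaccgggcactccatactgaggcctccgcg
Tk1 (chr11:117825965-117826264, minus strand): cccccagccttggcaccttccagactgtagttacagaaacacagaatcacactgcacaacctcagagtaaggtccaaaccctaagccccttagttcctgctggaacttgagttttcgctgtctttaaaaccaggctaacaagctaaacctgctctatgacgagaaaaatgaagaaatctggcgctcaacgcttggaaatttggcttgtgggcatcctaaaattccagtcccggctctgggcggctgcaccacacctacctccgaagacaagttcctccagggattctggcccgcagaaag
Rfc4 (chr16:23127681-23127980, minus strand): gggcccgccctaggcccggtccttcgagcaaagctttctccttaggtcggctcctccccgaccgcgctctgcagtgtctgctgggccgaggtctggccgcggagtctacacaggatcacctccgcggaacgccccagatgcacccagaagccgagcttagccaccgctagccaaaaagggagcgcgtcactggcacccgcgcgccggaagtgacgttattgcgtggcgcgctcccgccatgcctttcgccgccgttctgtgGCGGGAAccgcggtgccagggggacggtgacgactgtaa
Positions count from 0 at the window's start of transcription, on the printed strand. The window of Mcm3 held 3 matches, the leftmost bases of which lay 19, 39 and 42 bases after the start, and the last 2 share letters on opposite strands. Rrm2 had 1 match 235 bases before the start and Rfc4 1 match 11 bases after it. Fen1 and Tk1 had none in these windows. The bases just after the start in the printed Fen1 window were not found in GENCODE transcripts of the gene. A second window of Fen1, not counted here, starts 472 bases inside the gene. Its bases were found in a transcript, and it held 1 core match 34 bases before its start. Of the 49 windows of these genes, 40 had such bases in a transcript. Of the other genes with a counted window, Mcm6 had the most matches with 5, followed by Mcm5 with 3. Dnmt1 had none in its counted window. Another Dnmt1 window, which starts 7265 bases inside the gene and is not counted, held 3 core matches.

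Replication genes outside the list showed smaller values. For comparison, 2.40% of all genes tested rose, and 8.97% were higher and 6.52% lower at an unadjusted p under 0.05. Of 24 further tested genes of the replisome and origins, 0 passed in limma, 3 were higher and 0 lower at an unadjusted p under 0.05, and the median log2 fold change was 0.15. The 3 were Mtbp, a partner in origin firing (0.64, SE 0.22), Tipin, of the fork protection complex (0.38, SE 0.14), and Pole2, of polymerase epsilon (0.55, SE 0.22). Of 14 further nucleotide enzymes, 0 passed in limma, with 5 higher and 0 lower at an unadjusted p under 0.05 and a median of 0.21. The smallest p-values there were for Nme1 (0.32, SE 0.09), Paics (0.38, SE 0.11) and Umps (0.49, SE 0.15), which serve nucleoside triphosphate, purine and pyrimidine synthesis. Of 8 genes of histone supply, 1 rose: Asf1b, the histone chaperone of dividing cells, measured 46.3 and 64.4 FPKM in KO, against 23.5 and 29.7 FPKM in WT (1.02, SE 0.17, adjusted p = 0.00761).

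Regulators of G1 and S phase other than E2f1 and the E-type cyclins mostly did not pass. Of 19 tested, 1 rose and 0 fell, where 2.40% and 0.939% of all genes did, and the median was 0.08. The gene that rose was Cdkn1a, which encodes p21, an inhibitor of cyclin-dependent kinases, at 6.44 and 6.55 FPKM in KO and 2.21 and 1.41 FPKM in WT (1.43, SE 0.22, adjusted p = 0.00577). Tfdp1, the dimer partner of E2F factors, had 0.65 (SE 0.19, adjusted p = 0.117), and Cdk2 had 0.40 (SE 0.13, adjusted p = 0.162). The abundant D-type cyclins Ccnd2 (−0.10, SE 0.09) and Ccnd3 (−0.09, SE 0.09) lay near 0.

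Genes of G2 and mitosis gave larger values than the replication genes. Of 17 tested, 10 rose and 0 fell, where 2.40% and 0.939% of all genes did. All 17 had KO libraries above WT libraries, where 24.3% of all genes tested did. The median log2 fold change was 1.198, beside 0.37 for the 45 replication genes. Kif11, Kif23, Bub1b, Cdk1 and Tpx2 had WT means of 0.18 to 0.86 FPKM, and their KO level brought them over the filter. Kif11 and Kif23 are among the 10 that rose, so these counts are no test of the list. A test of the difference between the lists was not made. Stmn1 (1.68, SE 0.12), Cdca8 (1.64, SE 0.25) and Aurkb (1.27, SE 0.20), which act on microtubules and in chromosome segregation, had the smallest p-values. The transcripts of these 3 stood in both KO libraries at like levels, as for Aurkb with 5.24 and 5.22 FPKM in KO, against 1.63 and 1.53 FPKM in WT. Others of the list were uneven within the KO, such as Ccnb2 with 8.37 and 16.8 FPKM and Cdk1 with 2.87 and 1.47 FPKM. Stmn1 alone gave 71.7 and 79.2 FPKM of the list's sums of 154.5 and 171.7 FPKM in KO.

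Markers of other cells and of RNA composition moved in the same libraries. Among all genes tested, 2.40% rose and 0.939% fell, and 8.97% were higher and 6.52% lower at an unadjusted p under 0.05. Of 12 tested markers of conventional NK cells 10 rose, and the list summed to 309.5 and 664.8 FPKM in KO, against 113.1 and 110.3 FPKM in WT. Of 11 tested macrophage markers 8 rose, and the list summed to 653.3 and 968.3 FPKM in KO, against 247.4 and 226.3 FPKM in WT. Most of each macrophage sum was Lyz2, at 526.7 and 771.1 FPKM in KO and 213.3 and 193.0 FPKM in WT. Clec4f (0.98), Vsig4 (0.85) and Cd5l (−0.04) did not pass, and their groups overlapped. Marco, below the filter, was lower in both KO libraries. No marker of the NK list was at 0 in a library, and of the macrophage list Timd4 was at 0 in WT replicate 1. Both lists were higher in KO replicate 2 than in KO replicate 1. Neutrophil markers summed to 26.3 and 48.1 FPKM in KO, against 18.2 and 7.52 FPKM in WT, with 2 of 4 tested rising (Ngp and Camp), Mpo listed at 0 in all 4 libraries and Elane at 0 in all but WT replicate 3. Ngp and Camp, Eomes and Cx3cr1 of the NK list and Adgre1 of the macrophage list had WT means of 0.043 to 0.85 FPKM. Their KO level brought them over the filter and each is among those that rose, so these counts are no test of the lists. Erythroid markers were lower, with 7 of 7 tested falling and sums of 12483 and 14027 FPKM in KO, against 24711 and 26812 FPKM in WT, while the erythroid transcription factor Klf1 was at 0 to 0.115 FPKM in all 4. Mitochondrially encoded mRNAs summed to 12831 and 15138 FPKM in KO, against 6697 and 8481 FPKM in WT, and 11 of 13 rose. None of the 6 tested T cell markers or 4 tested B cell markers passed in limma, although 2 T cell markers were higher and 1 lower, and 2 B cell markers lower, at an unadjusted p under 0.05. The T cell list summed to 2124 and 2156 FPKM in KO, against 2373 and 2348 FPKM in WT, most of it Cd3g, and the B cell list to 46.0 and 56.8 FPKM in KO, against 53.7 and 73.3 FPKM in WT. None of 5 tested hepatocyte markers passed in limma (1 higher at an unadjusted p under 0.05), with sums of 183.2 and 194.1 FPKM in KO, against 116.8 and 167.8 FPKM in WT. Kit, the 1 tested progenitor marker, measured 3.10 and 2.46 FPKM in KO, against 1.31 and 0.644 FPKM in WT (adjusted p = 0.071). The 5 ILC2 and ILC3 markers in the table were all below 1 FPKM, with Il13 and Il22 listed at 0 in all 4 libraries.

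In summed FPKM, the KO libraries stood closer to each other in the replication genes than in the NK, macrophage and neutrophil lists. The 49 genes summed to 1.22 and 1.16 times the WT mean in KO replicates 1 and 2. Single genes such as Mcm7, Pold1 and Uhrf1 were uneven within the KO. The 6 genes that rose summed to 107.8 and 101.8 FPKM in KO, against 54.6 and 61.6 FPKM in WT, or 1.85 and 1.75 times the WT mean. Passing the test favours genes whose KO libraries agree, so the closeness of these 6 was partly set by their selection. The conventional NK markers stood at 2.77 and 5.95 times the WT mean in KO replicates 1 and 2, and the macrophage markers, mostly Lyz2, at 2.76 and 4.09 times. The part of these other cells in the values of the replication genes was not tested. Without KO replicate 2, 5 of the 6 genes passed (all but Fen1), where 1.79% of all genes tested were called higher. KO replicate 1, which that fit keeps, also held more of the NK and macrophage transcripts than either WT library. E2f1, Tk1, Rrm2 and Fen1 passed without KO replicate 1, where 3.70% of all genes did. E2f1, Tk1 and Rrm2 passed without WT replicate 1 (2.11% of all genes), and the same 3 with Fen1 and Cdc6 without WT replicate 3 (2.33%).

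**Figure D5:**
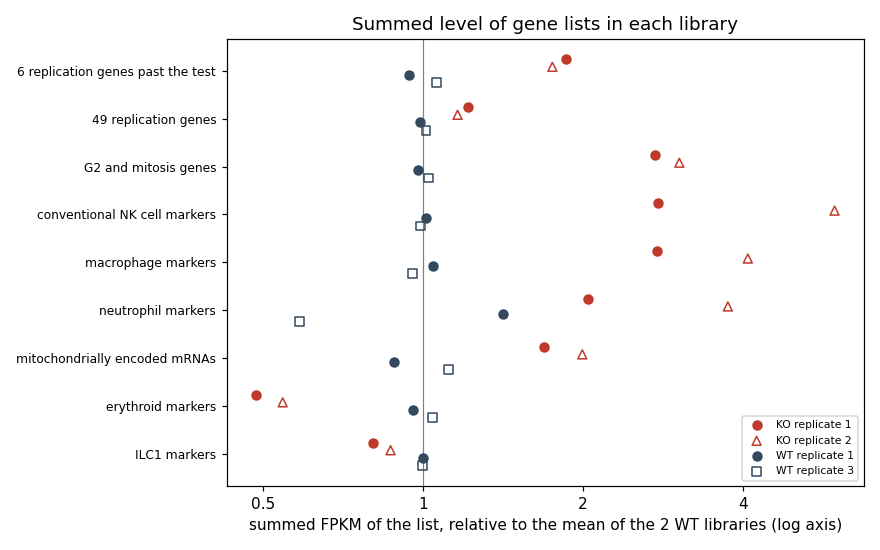
Summed FPKM of each gene list in each library, divided by the mean of the 2 WT libraries, on a log axis. Red marks are KO and dark marks WT. The KO libraries lie close together for the replication and mitosis lists and apart for the markers of conventional NK cells, macrophages and neutrophils, with erythroid markers below 1.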

How the data were processed

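RNA was sequenced from liver ILC1s of 2 Cd200r knockout and 2 WT libraries, grouped by the labels. Per the labels' protocols, RNA was extracted with TRIzol, amplified as full-length cDNA with a single-cell kit and made into libraries with a transposase-based kit, which does not mark strand. The submitters' processing notes name mm10 as the build and, with neither role nor order, HISAT2, HTSeq, fastp, R 3.2.0 and DESeq2. The authors deposited FPKM per gene, with no read counts and no scaling between libraries stated. Depth was inferred from steps between low values of 604 single-exon genes (GENCODE M21). At the inferred depth 28.4% to 31.9% of low values lay within 0.05 of a whole read, where the median of the other depths tried was 7.96% to 9.93%. The depth is therefore an estimate.

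Genes averaging 1 FPKM or more (9476) were tested two-sided on log2(FPKM + 1) with limma 3.58.1 (R 4.3.3; variance trend on level), Benjamini-Hochberg adjustment over those genes and a threshold of 0.05, after a check on simulated data. Fold changes are KO minus WT on that scale, which understates changes of low genes; folds are ratios of group means. No 2 libraries of a group held identical values. Members and lists were chosen with earlier results of these data known. Values per library are given for genes past the test and for those with the smallest p or highest level of each role, and up to 3 genes with the smallest p are named from other lists; further genes were named after their values were seen. List members missing from the table were not analysed here. A further gene list is not reported here. Alternatives were the pseudocount, the filter, 3 rescalings, the variance trend and each library left out. RefSeq (GRCm38.p6) gave promoter windows for 40 of 49 genes; the rule on their distance from the gene's 5′ end was set after the data were seen.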

Additional observations from a re-analysis of the deposited data

How the results depend on the processing

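Among all genes, 227 rose and 89 fell in KO. With no filter limma called 0 in each direction (1898 genes at an unadjusted p under 0.05), with a mean of at least 5 FPKM 151 rose, and without the trend 57 rose and 13 fell. Leaving out 1 library gave 170 to 351 rises and 56 to 223 falls, the most without KO replicate 1. Of the replication genes, 6 rose; 0 did with no filter (22 higher and 1 lower at an unadjusted p under 0.05), 3 with quantile normalization, 2 without the trend, and 4 to 6 with 1 library left out. None fell under any of these. The median log2 fold change of the tested replication genes was 0.37, with 0.30 to 0.41 over libraries left out and 0.27 with a pseudocount of 5 or with the stricter filter. The rescalings put the median log2 fold change of all genes between −0.02 and −0.0040, beside 0.0033. Of all calls 71.8% were rises, and 61.1% without KO replicate 1. Among single genes, 15 of 527 alternative values turned sign, all with 1 library left out and none in a gene that passed. Over the libraries left out, the log2 fold changes ran from −0.15 to 0.0093 for Cdt1, −0.34 to 0.56 for Mcm7, −0.076 to 0.32 for Cdc45, −0.043 to 0.12 for Gins4, −0.35 to 0.26 for Pold1, −0.14 to 0.044 for Pold2, −0.14 to 0.062 for Rfc1, −0.038 to 0.28 for Rfc3, −0.074 to 0.0022 for Rfc4, −0.042 to 0.20 for Rpa1 and −0.0050 to 0.29 for Rpa3. The cause of these changes was not tested. No paired analysis was possible because KO and WT share only replicate number 1.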
